A study of Mus musculus with 51 samples.

Results

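The chemokine gene *Cxcl12* and the genes of its receptors, *Cxcr4* and *Ackr3*, were followed through Bmp4-induced differentiation of mouse ES cells towards cardiac mesoderm. These 3 genes, of 24538 in each of 9 deposited FPKM tables, were taken by symbol. They had been selected on their measured FPKM values and KO to WT ratios in these tables, so their levels and ratios are a description and no test was run on them. The RNA-seq part of the study holds 18 of its 51 samples. All of them, other than those of the ES state, had been given Bmp4 (20 ng/ml) from the start of differentiation, and the feeder cells of the ES cultures (mouse embryo fibroblasts) had been removed before it. F1G4 WT cells were sampled in the ES state (the aggregates before Bmp4) and on days 1, 2 and 3, with 2 samples per stage. The *Eomes* KO and *T* KO lines and the *Eomes*/*T* dKO line, all derived from F1G4, were sampled on days 2 and 3 (1 sample each). These lines were made by double-nicking CRISPR/Cas9 deletion around the promoter and first exon, and the dKO from *Eomes* KO cells. *Smad4* KO cells and WT cells of the line they came from (129S/SvEvxC57BL/6 background) were sampled on days 1 and 2 (1 sample each). That KO had been obtained by Cre excision of the first *Smad4* exon from conditional cells. Each KO line stands for a single clone, so a difference from WT cannot be told apart from one between clones.

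CXCL12 is a secreted chemokine that guides migrating cells, among them mesodermal and endodermal cells of the gastrulating embryo, germ cells and blood progenitors. CXCR4 is its G protein-coupled receptor, which signals through Gi proteins, PI3 kinase and Rac and is switched off by receptor kinases and arrestins. ACKR3 binds CXCL12 with high affinity without coupling to G proteins, takes it up and removes it, and so shapes the gradient that CXCR4 reads. In the embryo *Cxcr4* is known from gastrulating mesoderm and definitive endoderm.

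*Cxcl12* had its highest levels in *Smad4* KO cells and its lowest in ES cells. In WT cells it was high on day 1 and low again by day 3, and it was above the WT column in 8 of 8 comparisons of KO with WT cells. Of these comparisons, 6 reuse the same F1G4 WT libraries of days 2 and 3 and are not independent. *Cxcr4* and *Ackr3* were low throughout. *Cxcr4* did not exceed FPKM 0.859 in any of the 14 conditions, and *Ackr3* passed FPKM 1 only in ES cells (2.00) and in *T* KO cells on day 3 (1.21). Both WT libraries of a day differed by 2.70- to 4.81-fold in these 3 genes, and this spread limits what can be read from the differences below.

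**Figure D1:**
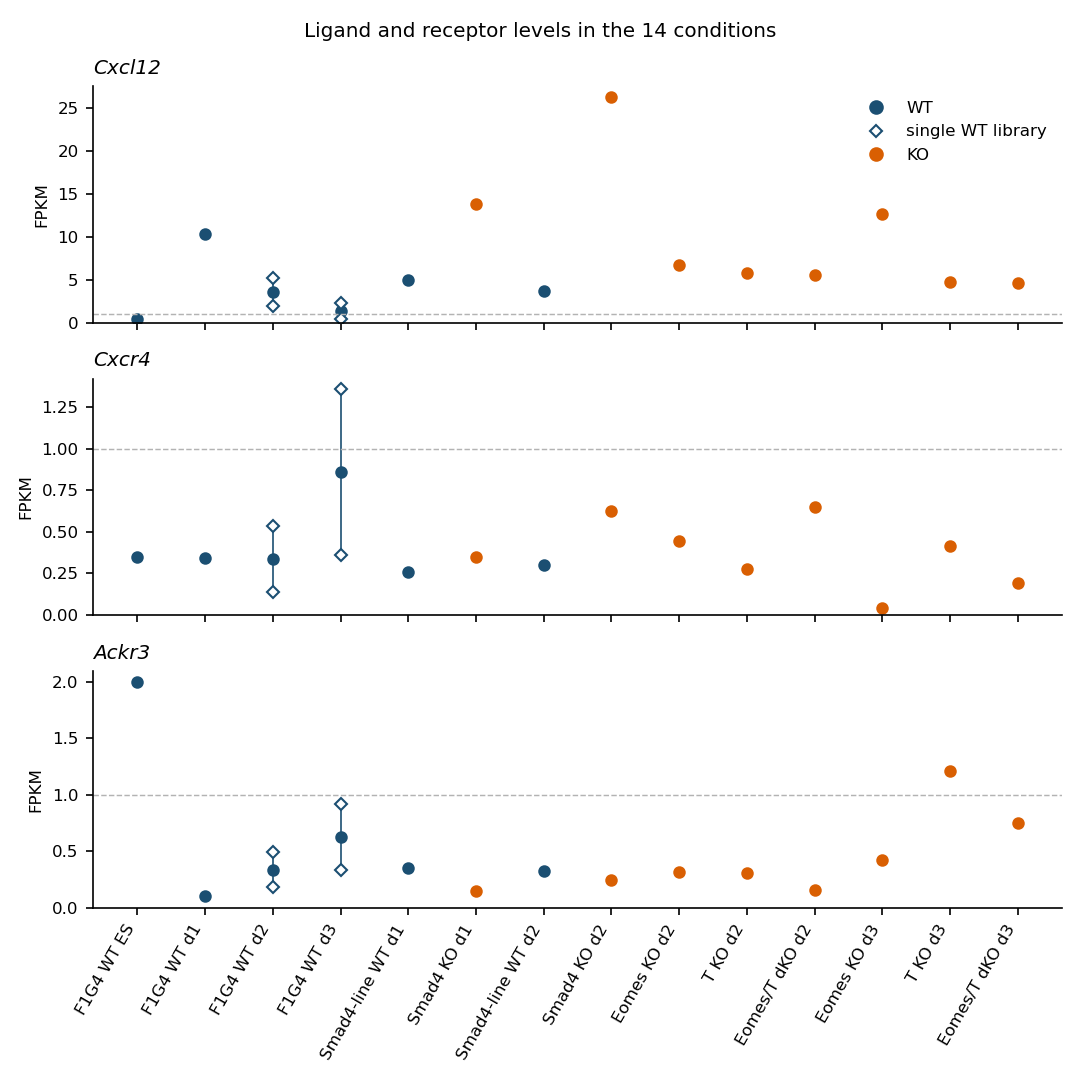
FPKM (linear axes from 0) of *Cxcl12*, *Cxcr4* and *Ackr3* in the 14 conditions, filled circles in blue for WT and in orange for KO columns, with open diamonds for the single WT libraries of days 2 and 3 and a dashed line at FPKM 1. *Cxcl12* peaks at 26.3 in *Smad4* KO cells on day 2, whereas the receptors stay below or near FPKM 1 except for *Ackr3* in ES cells.

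Each table gives 1 FPKM value (fragments scaled to transcript length and library size) for a gene in a condition. For genes with a single RefSeq transcript, the product of FPKM and transcript length fell on whole multiples of a step, the worth of 1 fragment. In the 10 columns of KO cells and of the *Smad4* line there was 1 step, and 93.5% to 94.97% of the values under 10 fragments were whole within 0.05. This is the pattern of 1 library per column, with about 18100000 to 37400000 fragments by the size of the step, and the labels list 1 sample for each of these conditions. Legends of the study speak of averaged replicates for the KO lines too, and this discrepancy could not be resolved. The 10 F1G4 WT columns had 2 steps, as for the mean of 2 libraries, with about 49100000 to 55500000 fragments in total.

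**Figure D2:**
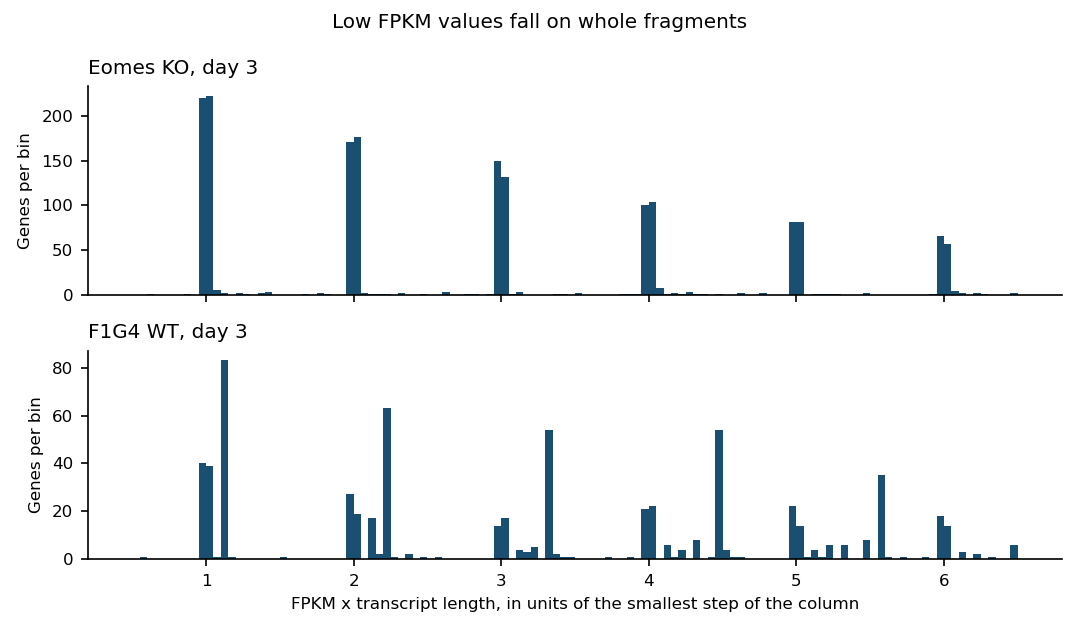
Number of single-transcript genes (vertical axis) against FPKM multiplied by transcript length in units of the smallest step (horizontal axis), for *Eomes* KO cells and for F1G4 WT cells on day 3. The KO column shows 1 comb of whole numbers and the WT column a second set of peaks from its other library.

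The F1G4 WT columns of days 2 and 3 occur in 4 tables each, which mix the same 2 libraries in slightly different proportions. Their single values could therefore be recovered by solving for 2 contributions per gene. Of 16291 genes on day 2 and 15731 on day 3, 99.7% and 99.7% were reproduced in all 4 tables with a relative error below 0.001, and 93.2% to 94.5% of the recovered low values were whole fragments. Which of these libraries is which labelled replicate is unknown. They were numbered 1 and 2 within a day, and numbers do not pair across days. Libraries of ES cells and of day 1 stand in 1 table only and could not be separated. Above FPKM 1, the 2 WT libraries differed by more than 2-fold in 5.77% of 10897 genes on day 2 and in 8.10% of 10895 on day 3. Their squared difference was 7.86 (day 2) and 11.0 times (day 3) the counting variance in genes of 20 to 100 fragments, so counting intervals were too narrow here and differences are set against the WT libraries instead. Fragments amplified by PCR without molecular identifiers are not independent molecules.

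The targeted genes were lower in the columns of their lines, less so on day 2. On day 2 *Eomes* stood at 2.42 in *Eomes* KO cells against 9.42 in WT cells and *T* at 6.64 in *T* KO cells against 44.8, and in the dKO they were at 1.24 and 2.77. *T* stood at 3.00 in *T* KO cells against 323 in WT cells on day 3, and *Eomes* at 0.276 in *Eomes* KO cells against 20.3. In the dKO on day 3 *T* was at 1.93 and *Eomes* at 0.346. *Smad4* was not lower in the columns labelled *Smad4* KO (39.4 against 33.8 on day 1 and 46.8 against 39.3 on day 2). As only its first exon was excised, gene-level FPKM does not check that label. In the same KO column of day 2, *T* stood at 0.891 against 26.6 and *Eomes* at 1.73 against 24.8. *Eomes* KO on day 3 and *T* KO on day 2 stand apart, with a robust SD of all log2 ratios of 0.572 and 0.575 against 0.238 to 0.464 in the other KO comparisons.

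*Cxcl12* lies on chromosome 6 (chr6:117168535-117181368, plus strand, GRCm38.p6) with 3 RefSeq transcripts of 3 to 4 exons, *Cxcr4* on chromosome 1 (chr1:128588199-128592299, minus strand) with 2, and *Ackr3* on chromosome 1 (chr1:90203980-90215724, plus strand) with 2. No other gene overlapped them. The 250 bases before the start of *Cxcl12* and *Cxcr4* are shown because the ligand and its signalling receptor are the genes compared between KO and WT cells, and the factors deleted or acting in these cells have known motifs. The sequences are from RefSeq on GRCm38.p6, 5′ to 3′ in the direction of the gene, and searched motifs are in capitals.
Cxcl12, chr6:117168285-117168534, plus strand: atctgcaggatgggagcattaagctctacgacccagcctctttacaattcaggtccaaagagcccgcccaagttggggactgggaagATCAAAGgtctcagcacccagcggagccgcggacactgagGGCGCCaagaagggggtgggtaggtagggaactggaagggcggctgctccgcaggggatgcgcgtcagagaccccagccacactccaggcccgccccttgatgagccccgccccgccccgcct
Cxcr4, chr1:128592300-128592549, minus strand: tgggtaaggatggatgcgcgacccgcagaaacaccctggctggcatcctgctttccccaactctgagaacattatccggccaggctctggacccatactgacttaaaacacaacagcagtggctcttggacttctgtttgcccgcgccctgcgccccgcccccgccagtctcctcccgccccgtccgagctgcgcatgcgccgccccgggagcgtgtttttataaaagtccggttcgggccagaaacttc
Motifs were searched on both strands and did not overlap each other. The *Cxcl12* window held 1 Tcf/Lef motif, ATCAAAG, 163 bases before the start, which occurs in 3.21% of 32851 promoter windows of this length. It also held 1 GC-rich Smad motif, GGCGCC, 123 bases before the start, which occurs in 9.59% of them. The T-box motif TCACAC (12.3% of windows), the Foxh1 motif AATCCACA (0.718%) and the hypoxia motif ACGTG (16.6%) were absent from the windows of *Cxcl12*, *Cxcr4* and *Ackr3*. The *Cxcr4* window and that of *Ackr3* held none of the 5 motifs. GC content was 64.4% for *Cxcl12*, 61.2% for *Cxcr4* and 54.0% for *Ackr3*, against a median of 52.4% over all windows.

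The time course of F1G4 WT cells shows how the ligand gene was used as ES cells left pluripotency and formed mesoderm. FPKM of *Cxcl12* was 0.452 in the ES state, 10.3 after 1 day, and then 3.54 and 1.36 on days 2 and 3. Following the study, a gene counted as DE when FPKM passed 1 in at least one of the groups compared and the log2 ratio lay beyond 1 or −1. *Cxcl12* was DE in each of the 4 steps compared, with log2 ratios of 4.51 from ES to day 1, −1.54 from day 1 to day 2, −1.39 from day 2 to day 3 and 1.58 from ES to day 3. Of all genes examined, 7.7% were DE higher and 5.84% lower in the first of these steps, 7.17% and 4.13% in the second, 6.14% and 4.06% in the third, and 18.5% and 12.6% from ES to day 3. Only 21 of 11030 genes had a higher ratio on day 1 to ES cells.

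The single WT libraries bear on the later steps. On day 2, WT library 1 held *Cxcl12* at 5.17 and library 2 at 1.91, and on day 3 they held 2.24 and 0.467. The ranges of days 2 and 3 overlapped, and the level of the lower day 3 library was that of the ES column (0.452). Both day 2 values were below the day 1 column, but against the higher one the log2 ratio was −0.997, just short of the DE threshold. *Cxcl12* differed between the libraries more than most genes of its expression level did. Among 1399 genes of similar level on day 2 (FPKM 1.89 to 3.59) 3.65% differed more, and among 1373 on day 3 (FPKM 0.947 to 2.13) 4.37% did.

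Marker sums of the WT libraries differed as well. Library 1, which had more *Cxcl12* on both days, also had the higher sum of 5 germ cell markers (56.4 against 28.9 on day 2 and 54.6 against 24.5 on day 3), of 6 pluripotency markers (1020 against 786, and 655 against 581) and of 7 fibroblast markers (4.19 against 1.79, and 2.45 against 1.58). The sums of mesoderm markers (42.2 against 73.7, and 413 against 323) and of neural markers (24.1 against 33.0, and 38.3 against 17.8) differed in opposite directions on the 2 days, as did those of endoderm and of endothelial and blood markers. Single genes were no steadier, with *Nanog* at 179 against 62.4 on day 2 but 115.5 against 121.9 on day 3, and *Sox2* at 21.3 against 21.8 and then 37.2 against 3.61. The fibroblast sums came largely from *Thy1* on day 2 (3.22 against 0.719) and *Postn* on day 3 (0.870 against 0.086). *Dcn* and *Col3a1* were higher in library 2 on both days. The germ cell sum of day 2 came mainly from *Dppa3* (46.6 against 22.7), while *Prdm1* and *Tfap2c* were lower in library 1. Mesoderm sums came mainly from *T* (28.1 against 59.0, and 351 against 288) and neural sums from *Nes* (21.19 against 31.45, and 35.29 against 15.71). The part of these differences in the *Cxcl12* level was not tested. In bulk samples, fewer cells of a type and less RNA per cell cannot be told apart.

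**Figure D3:**
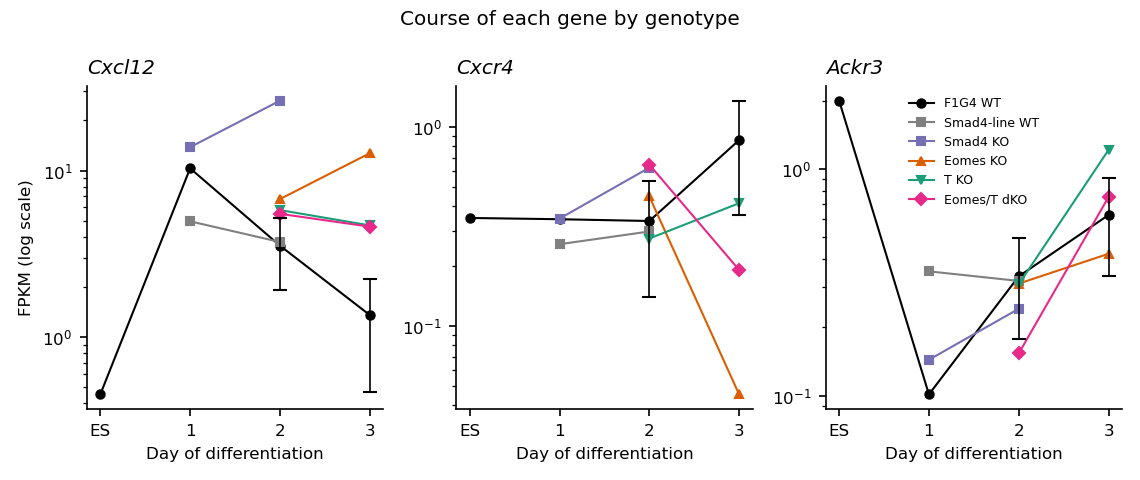
FPKM (log axis) of *Cxcl12*, *Cxcr4* and *Ackr3* by day in each line, with vertical lines from one F1G4 WT library to the other on days 2 and 3. *Cxcl12* of KO cells lies above both WT libraries on day 3, while *Cxcr4* of *T* KO cells (0.414) lies between them.

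*Smad4* KO cells, in which signals of Bmp4 and Nodal cannot be passed on by the common Smad, had the highest *Cxcl12* levels of the study. On day 1 *Cxcl12* stood at 13.8 in the KO and at 4.96 in the WT cells of the line, a 2.79-fold difference (log2 1.480). On day 2 it stood at 26.3 and 3.72, a 7.07-fold difference (log2 2.82). It was DE higher on both days, where 2.36% of genes were higher and 2.41% lower on day 1, and 2.56% and 3.21% on day 2. Only 25 of 10999 genes had a higher ratio on day 2, and 105 of 11232 on day 1. From day 1 to day 2 *Cxcl12* was 1.902-fold higher in the KO and 1.33-fold lower in the WT cells.

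All 4 columns of the *Smad4* line hold 1 library, so their own spread is unknown. The day 2 difference exceeded the 2.70-fold between the F1G4 WT libraries of that day, and the day 1 difference was close to it. Between the WT lines, *Cxcl12* was 2.08-fold higher in F1G4 on day 1 (10.3 against 4.96) and nearly equal on day 2 (3.54 against 3.72). *Smad4* KO cells on day 1 (13.8) therefore stood close to F1G4 WT cells of the same day. Neural markers were also higher in these KO cells. On day 2 *Pax6* stood at 10.4 against 0.378 and *Sox1* at 3.58 against 0.302, and the sum of 5 neural markers was 77.2 against 32.9. Most of that sum was *Nes* (58.05 against 29.98), which was not DE. The sum of 7 fibroblast markers was 5.36 against 2.18, with *Dcn* at 2.03 against 0 and *Col1a1* (0.342) and *Lum* (0.014) near 0. The part of either cell type in the *Cxcl12* difference was not tested.

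*Eomes* and *T* are T-box factors required for mesoderm formation, and their KO lines share the same WT columns. On day 3 *Cxcl12* stood at 12.7 in *Eomes* KO, at 4.68 in *T* KO and at 4.60 in dKO cells, against 1.41, 1.37 and 1.40 in the WT columns of the same tables. The folds were 9.02, 3.43 and 3.28 (log2 3.17, 1.78 and 1.71), and *Cxcl12* was DE higher in all 3 comparisons. Each of the 3 KO values was above both WT libraries. Genes that were DE higher made up 7.39% in *Eomes* KO, 2.12% in *T* KO and 5.51% in dKO cells, and DE lower 9.01%, 3.92% and 5.53%. A higher ratio was found for 48 of 11629, 47 of 11239 and 247 of 11473 genes.

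Against the higher WT library alone, *Cxcl12* on day 3 was 5.46-fold higher in *Eomes* KO, 2.08-fold in *T* KO and 1.99-fold in dKO cells. It was thus more than 2-fold above both WT libraries in *Eomes* KO and *T* KO cells and just short of that in the dKO. Of all genes examined, 4.54%, 1.06% and 3.46% were more than 2-fold above both, and 36.8%, 30.2% and 34.7% were above both by any amount. The dKO, which lacks both factors, had 2.76-fold less *Cxcl12* than *Eomes* KO cells and a level close to that of *T* KO cells.

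On day 2 *Cxcl12* was not DE in these lines. It stood at 6.74 in *Eomes* KO, 5.79 in *T* KO and 5.50 in dKO cells against 3.52, 3.67 and 3.51 in WT cells (log2 0.94, 0.66 and 0.65). All 3 KO values lay above both WT libraries, but only by 1.31-, 1.07- and 1.07-fold over the higher one. These differences were smaller than the 2.70-fold between the WT libraries. Of all genes, 35.0%, 39.4% and 38.2% were above both WT libraries in these comparisons, and 2.18%, 3.29% and 2.23% more than 2-fold. DE higher genes made up 3.35% in *Eomes* KO, 5.7% in *T* KO and 3.48% in dKO cells, and DE lower ones 4.17%, 9.93% and 4.5%.

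In all, *Cxcl12* was DE higher in 5 of 8 comparisons with KO cells, and in 4 of 6 when *Eomes* KO on day 3 and *T* KO on day 2, the columns of widest spread, were left out. From day 2 to day 3 it was 1.89-fold higher in *Eomes* KO cells and 1.24-fold lower in *T* KO cells. Ordered by level, neighbouring conditions differed by at most 3.00-fold, which is not beyond the spread between WT libraries of day 3 (4.81-fold). The range from ES cells to *Smad4* KO cells on day 2 was 58.2-fold.

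**Figure D4:**
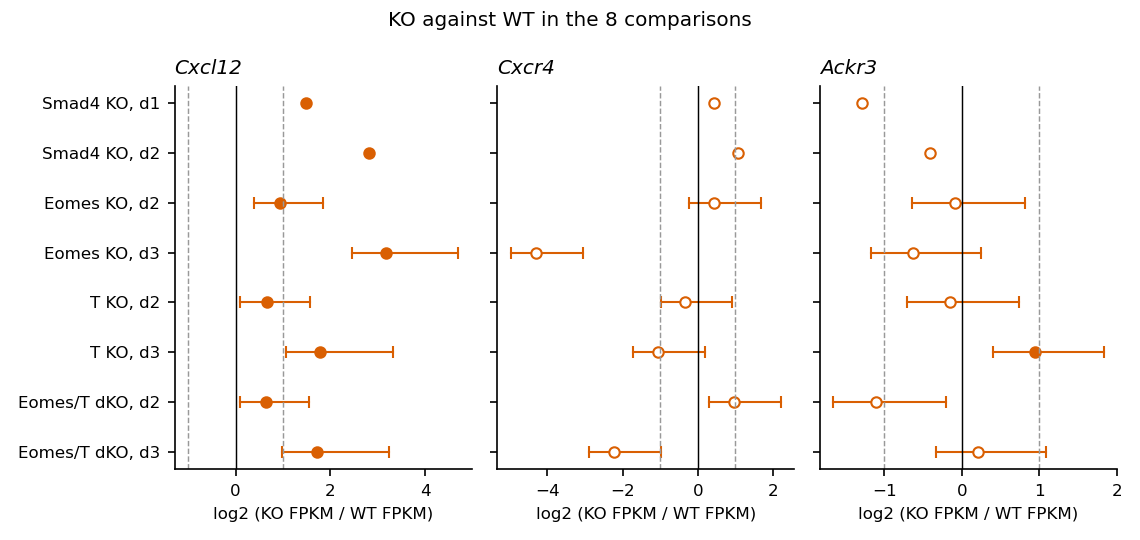
Log2 ratio of KO to WT FPKM (horizontal axis) of each gene in the 8 comparisons, filled circles where FPKM was above 1 in either group, with dashed lines at −1 and 1. Orange bars run from the ratio against the higher to that against the lower WT library, and none is drawn for the *Smad4* line, whose columns hold 1 library. The *Cxcl12* bars lie to the right of 0 in all 6 comparisons that have one.

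Neural markers did not move together in these lines. *Sox1* was DE higher in 5 of 6 comparisons and *Pax6* in 3, but the sum of 5 neural markers was 26.0 in *Eomes* KO, 40.8 in *T* KO and 37.6 in dKO cells on day 3 beside 28.1 in WT, and 40.1, 23.7 and 33.4 on day 2 beside 28.5. These sums came mainly from *Nes*, at 18.4, 37.3 and 24.7 on day 3 beside 25.5 in WT, which was not DE in these comparisons. In *Eomes* KO cells on day 3, where *Cxcl12* was highest of these lines, *Sox3* was DE lower (1.19 against 2.41) and *Nes* stood at 18.4 against 25.5. In *T* KO cells on day 3 no neural marker was DE. *Sox1* stood at 7.17, 4.01 and 5.17 on day 2 (*Eomes* KO, *T* KO, dKO) and at 5.75, 0.914 and 6.49 on day 3, against 0.202 and 0.192 in WT cells. *Pax6* reached 4.03 in dKO but 0.691 in *Eomes* KO cells on day 3, where *Cxcl12* was higher. Over the 8 comparisons neural markers were DE higher in 14 (50.0%) and DE lower in 1 (3.57%) of 28 examinations of a gene in a comparison, and mesoderm markers DE higher in 2 (5.13%) and DE lower in 34 (87.2%) of 39. Over all genes, 4.08% of 90352 examinations were DE higher and 5.36% DE lower. *Sox1* was below FPKM 1 in every WT column, and *Pax6* in those of days 2 and 3. They were examined there only where KO cells passed it. *Mesp1* and *Lhx1* passed FPKM 1 only in WT cells on day 3. The mesoderm list also holds *T* and *Eomes*, the genes deleted in the F1G4-derived KO lines. The shares of both lists are thus partly set by the FPKM minimum, and that of mesoderm markers also by the deletions. They cannot be read against that of all genes. The sum of 7 mesoderm markers on day 3 was 368 in WT and 3.35 to 8.59 in the KO lines. In WT cells it came mainly from *T* (320) and *Eomes* (19.4), the genes deleted in these lines. All 7 markers were DE lower in each line on day 3, *Mixl1* among them (15.6 in WT, 0.018 to 0.173 in the KO lines). The fibroblast sum ran from 0.6003 to 5.36 over all columns and was 4.39 in *Eomes* KO cells on day 3. The part of these cell types in the *Cxcl12* levels was not tested.

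**Figure D5:**
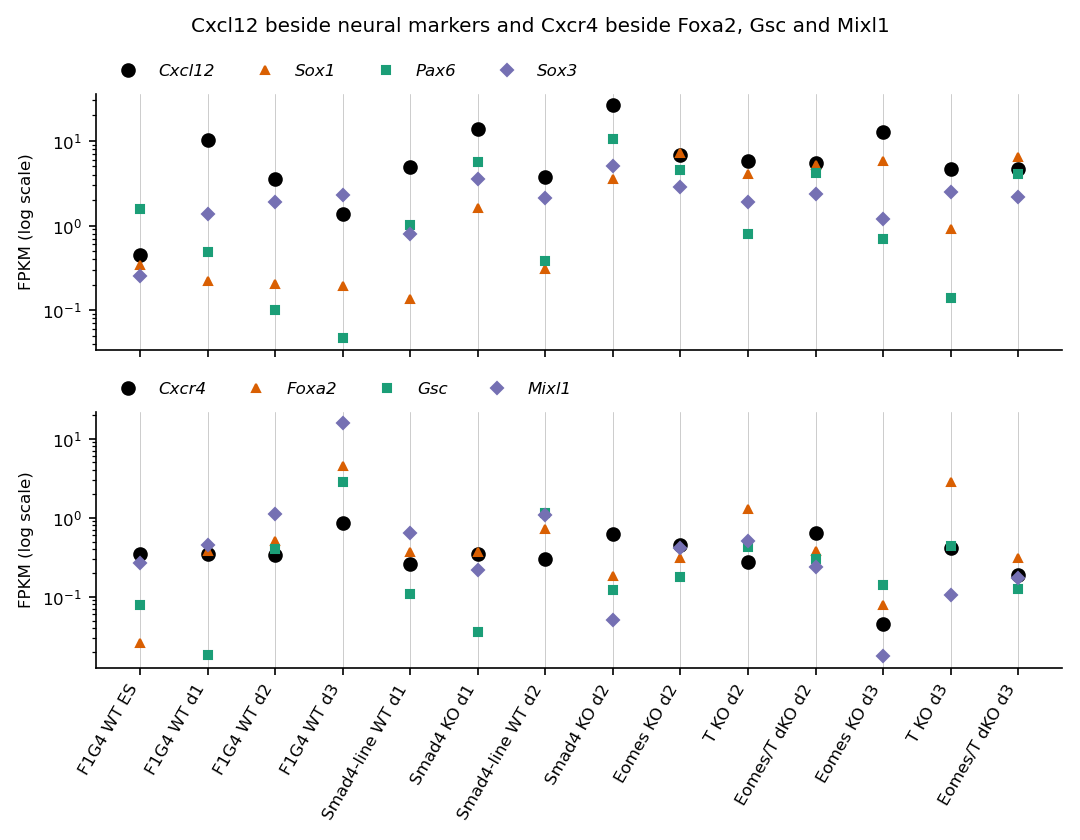
FPKM (log axes) of *Cxcl12* beside the neural markers *Sox1*, *Pax6* and *Sox3* (top), and of *Cxcr4* beside *Foxa2*, *Gsc* and *Mixl1* (bottom), in the 14 conditions. *Foxa2* is highest in F1G4 WT cells on day 3 (4.50), the condition in which *Cxcr4* is highest too. The endoderm marker *Hhex*, not shown, is highest in ES cells (1.07).

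*Cxcr4*, the signalling receptor gene, was below FPKM 1 in every deposited column, so the rule of the study did not examine it in any comparison. Its F1G4 WT columns read 0.349 (ES), 0.344 (day 1), 0.337 (day 2) and 0.859 (day 3). The day 3 column averaged 0.362 (19 fragments) and 1.36 (65 fragments), and the day 2 column 0.140 (7 fragments) and 0.534 (24 fragments). Ranges of the 2 days overlapped, and the higher column value of day 3 came mainly from 1 library, the one with less *Cxcl12*. Endoderm markers were mixed in that library, with *Gsc* (3.96 against 1.64) and *Foxa2* (4.99 against 4.01) above the other library and *Hhex* (0.491 against 1.09) and *Cer1* (0.174 against 0.336) below it.

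On day 3 *Cxcr4* was lower than both WT libraries in *Eomes* KO and dKO cells. In *Eomes* KO cells it stood at 0.045, from 2 fragments, against 0.375 and 1.43 in the WT libraries (log2 −4.31 against their mean, with a counting interval of −7.38 to −2.41 that covers counting error only). In dKO cells it stood at 0.191, from 7 fragments, against 0.374 and 1.42 (log2 −2.23). In *T* KO cells it stood at 0.414, from 28 fragments, and thus between the WT libraries (0.364 and 1.37; log2 −1.07 against their mean). Against the lower WT library the log2 ratios were −3.05 in *Eomes* KO, −0.97 in dKO and 0.18 in *T* KO cells.

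On day 2 *Cxcr4* did not leave the WT range in single KO cells. It stood at 0.448 in *Eomes* KO (23 fragments) and 0.275 in *T* KO cells (9 fragments), between the WT libraries. In dKO cells it was 0.647 (30 fragments), 1.23-fold above the higher library. In the *Smad4* line the day 1 columns gave *Cxcr4* at 0.258 (WT) and 0.346 (KO), and those of day 2 at 0.298 (WT, 19 fragments) and 0.624 (KO, 39 fragments). The day 2 difference of 2.09-fold was less than the 3.81-fold between F1G4 WT libraries of that day. Apart from the step to *Eomes* KO on day 3 (4.22-fold), neighbours in the order of *Cxcr4* levels differed by at most 1.39-fold, within the WT spread.

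Some endoderm markers were also lower in KO cells of day 3, as was the mesoderm sum given above, which in WT cells came mainly from *T*. *Foxa2* stood at 4.50 in WT, 2.80 in *T* KO, 0.310 in dKO and 0.079 in *Eomes* KO cells, the same order as their *Cxcr4* levels. *Hhex* did not follow this order, at 0.790 in WT, 0.302 in *T* KO, 1.03 in dKO and 0.093 in *Eomes* KO cells. On day 2 *Foxa2* was DE higher in *T* KO cells (1.28 against 0.527), where *Cxcr4* lay between the WT libraries. *Gsc* stood at 2.80 in WT and at 0.126 to 0.433 in the KO lines, lower in dKO (0.126) than in *Eomes* KO cells (0.140). *Sox17* and *Cer1*, also on the endoderm list, were at most 0.211 and 0.255 in any column, and the endothelial gene *Kdr* at most 0.415. The sum of 5 endoderm markers on day 3 was 8.43 in WT, 3.53 in *T* KO, 1.54 in dKO and 0.467 in *Eomes* KO cells. Their part in the *Cxcr4* levels was not tested.

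*Ackr3*, the scavenging receptor gene, was highest in ES cells (2.00) and lowest in F1G4 WT cells on day 1 (0.101), the column in which *Cxcl12* of that line peaked. It stood at 0.336 on day 2 and 0.627 on day 3, and was DE lower on day 1 (log2 −4.31) and on day 3 (log2 −1.68) relative to ES cells. The WT libraries held 0.178 and 0.494 on day 2 and 0.916 and 0.337 on day 3, and these ranges overlapped. Both libraries of each of these days were below the ES column.

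Among KO cells *Ackr3* was examined in 1 of 8 comparisons and DE in none. That was *T* KO on day 3, where it stood at 1.21 against 0.341 and 0.922 in the WT libraries, 1.32-fold above the higher one. In *Eomes* KO (0.422) and dKO cells (0.752) of day 3, and in *Eomes* KO (0.312) and *T* KO cells (0.310) of day 2, *Ackr3* lay between the WT libraries. In dKO cells on day 2 it was 0.153, from 8 fragments, just below the lower library (0.177). In the *Smad4* line the values were 0.353 (WT) and 0.144 (KO) on day 1, then 0.321 (WT) and 0.242 (KO) on day 2, from 7 to 23 fragments. Neighbours in its order differed by at most 1.65-fold, within the 2.72- to 2.77-fold of the WT libraries.

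The wider pathway was summarised over fixed lists in the 8 comparisons of KO with WT cells, counting each examination of a gene in a comparison. Signalling genes downstream of CXCR4 were DE higher in 0 and DE lower in 10 (7.94%) of 126 examinations, beside 4.08% and 5.36% over all genes. The share lower lies within the 2.41% to 9.93% of all genes in the single comparisons. *Gnai1*, a Gi alpha subunit through which CXCR4 signals, was lower on day 3 in each of the 3 lines that share the WT columns. It stood at 2.23 in *Eomes* KO, 4.68 in *T* KO and 3.27 in dKO cells, all more than 2-fold below both WT libraries (12.3 and 15.3 in the *Eomes* table). *Prex1*, a Rac activator, was DE lower in the same 3 comparisons and in the dKO on day 2, at 0.610 to 1.01 in KO cells, but more than 2-fold below both WT libraries only in the dKO on day 3. *Gnb1* (27.0 against 60.4) and *Pik3cb* (1.71 against 5.33) were DE lower in *T* KO cells on day 2, and *Stat3* (1.95 against 4.05) in *Smad4* KO cells on day 2. The median log2 ratio of the signalling genes examined (FPKM plus 0.1) was −0.05 to −0.34 in the 8 comparisons, beside −0.005 to −0.041 over all genes examined.

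Genes that switch off the receptors or G proteins were DE higher in 4 (6.35%) and DE lower in 5 (7.94%) of 63 examinations, both within the range of all genes in the single comparisons (2.12% to 7.39% higher, 2.41% to 9.93% lower). *Rgs2*, which turns G protein signalling off, was higher in *Smad4* KO cells on day 1 (8.25 against 2.08) and day 2 (5.40 against 1.20). *Rgs16*, of the same family, was higher in *Smad4* KO cells on day 1 (3.62 against 1.27) and in dKO cells on day 3 (1.67 against 0.805). In the dKO it was not more than 2-fold above the higher WT library (1.07). *Rgs16* was lower in the 3 F1G4-derived KO lines on day 2 (0.351 to 0.439, with both WT libraries at or above 0.999). *Arrb1*, an arrestin, was lower in the dKO on day 2 (4.60 against 9.36) and day 3 (4.44 against 9.67), but on neither day more than 2-fold below both WT libraries.

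Partners that act on CXCL12 or its receptors were DE higher in 5 (9.26%) and DE lower in 0 of 54 examinations, beside 4.08% and 5.36% over all genes. All 5 calls were on day 3, where 7.39% (*Eomes* KO), 2.12% (*T* KO) and 5.51% (dKO) of all genes were DE higher. *Cxcl11*, a second ligand of ACKR3, stood at 2.53 (*Eomes* KO), 1.75 (*T* KO) and 2.06 (dKO) against 0.829 to 0.855 in WT cells. As these WT values are below FPKM 1, *Cxcl11* was examined there only through the KO cells. *Cd74*, a receptor of MIF that pairs with CXCR4, stood at 2.76 in *Eomes* KO and 2.44 in dKO cells against 1.17 and 1.16. None of these 5 calls was more than 2-fold above both WT libraries, which held *Cxcl11* at 0.151 and 1.56. In WT cells the CXCL12-cleaving peptidase *Dpp4* was lower on day 1 (0.527) and day 3 (0.061) than in ES cells (2.91). *Mmp2*, which also cleaves CXCL12, was higher (1.03 in ES cells, 3.62 on day 1 and 5.86 on day 3), and so was *Adm*, whose peptide ACKR3 also binds (0.033 in ES cells, 3.77 on day 3).

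Other chemokine genes were DE higher in 10 (22.7%) and DE lower in 8 (18.2%) of 44 examinations, beside 4.08% and 5.36% over all genes, and 10 of 20 ever exceeded FPKM 1. *Cxcl1*, *Cxcl5*, *Ccl2* and *Ccl7* were below FPKM 1 in all WT columns and were examined only where KO cells passed it. *Ccl20* passed it only in WT cells on day 3. The FPKM minimum thus partly sets these shares, and they cannot be read against that of all genes. *Cxcl1* stood at 8.55 in *Eomes* KO and 3.54 in dKO cells on day 3, against 0.582 and 0.579. *Cxcl10* was highest in dKO cells (18.9), with 7.45 in *Eomes* KO and 5.49 in *T* KO cells against 1.96 to 2.02 in WT, and *Ccl2* at 2.74 in *Eomes* KO and 7.42 in dKO cells against 0.826 and 0.822. *Ccl20* was lower in all 3 lines on day 3 (0.154, 0.870 and 0.866 against 2.47 to 2.56). *Cxcl16* was lower on day 2 in *Eomes* KO (3.42 against 13.0), dKO (4.67 against 13.0) and *Smad4* KO cells (4.35 against 9.51). *Ccl7* and *Cxcl5* were DE higher in dKO (1.30 against 0.045) and *Eomes* KO cells (1.06, with WT cells listed at 0) on day 3. In *Smad4* KO cells *Cxcl10* was lower on day 2 (0.605 against 1.39) and *Cxcl1* higher on day 1 (1.10 against 0.535). *Cx3cl1* was lower in *T* KO cells on day 3 (0.485 against 1.08). Not more than 2-fold outside both WT libraries were *Cxcl10* and *Cx3cl1* in *T* KO cells on day 3 and *Cxcl16* in dKO cells on day 2. *Cxcl5* could not be set against the libraries, as its WT column of day 3 was at 0.

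Of 21 other chemokine receptor genes, only *Ackr4*, a scavenger of other chemokines, ever exceeded FPKM 1, and 5 were listed at 0 throughout. *Ackr4* was higher on day 2 in *Eomes* KO (5.21 against 1.57) and dKO cells (7.83 against 1.57) and on day 3 in dKO cells (5.86 against 1.17), and lower in *T* KO cells on day 3 (0.494 against 1.13, with WT libraries at 0.526 and 1.74). Over all these lists and without *Cxcl5*, 23 of 38 DE calls in the F1G4-derived lines were more than 2-fold outside both WT libraries. Of all genes, 4.54% (*Eomes* KO), 1.06% (*T* KO) and 3.46% (dKO) were more than 2-fold above both on day 3. DE higher there were 7.39%, 2.12% and 5.51%. On day 2 these shares were 2.18%, 3.29% and 2.23%, beside 3.35%, 5.7% and 3.48% DE higher. The share among lower calls was not computed over all genes, so the count of 23 does not set these lists apart.

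The genes whose course over the 14 conditions was most like that of each gene were taken by Pearson correlation of log2(FPKM + 0.1) among 9283 or 9284 genes. For *Cxcl12* these were *Dtx4* (r = 0.92), *Homez* (0.90), *Ica1* (0.89), *Sall2* (0.89) and *Acsl4* (0.88), with Spearman rho from 0.59 to 0.86. *Sall2*, a zinc finger gene, ran from 1.81 in ES cells to 19.9 in *Smad4* KO cells on day 2. For *Cxcr4* they were *Ldha*, a glycolytic enzyme (r = 0.85), *Vrk1* (0.84), *Vbp1* (0.82), *Pfkl*, another glycolytic enzyme (0.79), and *Hagh* (0.79). For *Ackr3* they were *Socs3*, a feedback inhibitor of Stat3 signalling (r = 0.88), *Cggbp1* (0.86), *P3h4* (0.85), *Picalm* (0.84) and *Pim3* (0.84). *Socs3* shares with *Ackr3* its highest value in ES cells (29.4) and its lowest on day 1 in F1G4 cells (0.805). The points share lines, days and library scaling, and *Cxcr4* and *Ackr3* rest on few fragments, so these values describe the 14 columns alone. With a pseudocount of 1 all 5 genes named for *Cxcl12* stayed among its 5 nearest, but only 3 of 5 did for *Cxcr4* (without *Vrk1* and *Hagh*) and for *Ackr3* (without *P3h4* and *Pim3*).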

How the data were processed

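RNA-seq values are FPKM, computed by the authors and deposited in 9 tables. The authors trimmed reads with cutadapt 2.9, aligned them with HISAT2 2.1.0 to GRCm38 (mm10), and quantified refSeq genes with Cuffdiff 2.2.1, correcting for multi-reads and bias but not for effective length. ScriptSeq v2 libraries were stranded, PCR-amplified and sequenced paired-end. Each column holds 1 value per gene and condition, and 0 columns of per-sample values were left unused.

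Ratios of KO to WT and between days of the F1G4 WT time course were taken within a table. Folds between KO lines, between days of a KO line or the *Smad4* line, and between WT lines set columns of different tables side by side. They were not rescaled, although the FPKM sum of a column ran from 401510 to 608585. A gene was DE by the rule of the study (FPKM above 1 in either group, log2 ratio above 1 or below −1, no pseudocount). Fragments were read from FPKM multiplied by transcript length. Single WT libraries of days 2 and 3 were recovered by weighted least squares from the 4 tables that hold them, an analysis chosen after seeing the data. Members and lists were chosen with earlier results of these data known, and no test was run on the members (no column holds a labelled replicate, so limma was not used). Named genes were the members, the 5 genes most like each, the targeted genes and DE members of the lists (up to 4 per list and comparison). List medians used a pseudocount of 0.1. The alternatives were pseudocounts of 0.1 and 1, no FPKM minimum and one of 5, TPM, a median ratio of 1, the time-course WT column and single WT libraries. Steps were tested on simulated data. Scripts ran in Python 3.11.15 (pandas 2.3.3, numpy 2.4.6, scipy 1.17.1, matplotlib 3.10.9). ChIP-seq and ATAC-seq were not analysed here.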

Additional observations from a re-analysis of the deposited data

Results flagged for a closer look

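*Cxcl12* moved in opposite directions from day 1 to day 2 in the *Smad4* line, with a log2 ratio of −0.41 in WT and 0.93 in KO cells. *Ackr3* did so as well, with −0.14 in WT and 0.75 in KO cells, from 7 to 23 fragments per column. Both differences between genotypes were untested, as each column holds 1 library.

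*Cxcr4* in *Eomes*/*T* dKO cells was above both WT libraries on day 2 (log2 0.96 against their mean) and below both on day 3 (log2 −2.23). The difference between the days was not tested, and the KO columns rest on 30 and 7 fragments.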

How the results depend on the processing

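No paired analysis was possible because the deposited columns carry no replicate number and the recovered WT libraries cannot be linked to the labelled replicates. Of 294 alternative log2 ratios of the 3 genes in 12 comparisons, 256 kept their side of the DE rule, 14 lost the DE call and 24 gained it. No called value reversed, and 11 uncalled ones of *Cxcr4* and *Ackr3* changed sign. With either WT library left out in turn, chosen after seeing the data, the log2 ratio of *Cxcl12* was 0.385 to 1.841 (*Eomes* KO on day 2), 0.103 to 1.569 (*T* KO on day 2), 0.095 to 1.549 (dKO on day 2), 0.989 to 3.239 (dKO on day 3), −2.433 to −0.997 (WT day 2 against day 1), −2.923 to −0.496 (WT day 3 against day 2) and 0.047 to 2.312 (WT day 3 against ES), that of *Cxcr4* −4.977 to −3.05 (*Eomes* KO on day 3), −1.729 to 0.184 (*T* KO on day 3), −2.889 to −0.969 (dKO on day 3), 0.104 to 2.617 (WT day 3 against day 2) and 0.053 to 1.958 (WT day 3 against ES) and that of *Ackr3* 0.398 to 1.831 (*T* KO on day 3). An FPKM minimum of 5 took the DE call from *Cxcl12* at 1.779 (*T* KO on day 3), 1.714 (dKO on day 3), −1.385 (WT day 3 against day 2) and 1.585 (WT day 3 against ES) and from *Ackr3* at −4.305 (WT day 1 against ES) and −1.676 (WT day 3 against ES), and left *Cxcl12* DE higher in 3 of 8 KO comparisons. A pseudocount of 1 took it from *Cxcl12* at −0.947 (WT day 3 against day 2) and 0.698 (WT day 3 against ES) and from *Ackr3* at −0.884 (WT day 3 against ES). Without an FPKM minimum *Cxcr4* passed the ratio threshold at 1.065 (*Smad4* KO on day 2), −4.314 (*Eomes* KO on day 3), −1.069 (*T* KO on day 3), −2.227 (dKO on day 3), 1.35 (WT day 3 against day 2) and 1.299 (WT day 3 against ES), and *Ackr3* at −1.296 (*Smad4* KO on day 1), −1.111 (dKO on day 2) and 1.73 (WT day 2 against day 1). With FPKM rescaled to TPM and the minimum kept at 1, *Cxcr4* met the DE rule at 1.075 (*Smad4* KO on day 2), −4.03 (*Eomes* KO on day 3), −1.125 (*T* KO on day 3), −2.337 (dKO on day 3), 1.336 (WT day 3 against day 2) and 1.43 (WT day 3 against ES). Rescaling raised the values of every column, as FPKM sums ran from 401510 to 608585, so *Cxcr4* passed that minimum there.

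The numbers of DE genes were 536, 635, 844, 1907, 1775, 679, 894, 1266, 1493, 1273, 1163 and 3591, with *Smad4* KO on days 1 and 2 first, then *Eomes* KO, *T* KO and dKO on days 2 and 3, then WT day 1 against ES, day 2 against day 1, day 3 against day 2 and day 3 against ES. Without an FPKM minimum they were, in this order, 3598, 3702, 4097, 5647, 5303, 3914, 4088, 4673, 5505, 4695, 4678 and 7771, and with a minimum of 5 they were 122, 254, 334, 1025, 1085, 269, 388, 563, 653, 541, 442 and 2064. With a pseudocount of 1 they were 176, 330, 376, 1083, 1075, 339, 404, 678, 820, 662 and 590 in all but the last. With TPM they were 977, 953, 1444, 2895 and 2148 for *Smad4* KO on days 1 and 2, *Eomes* KO on days 2 and 3 and dKO on day 2. TPM values are higher than FPKM here, so a minimum of 1 let more genes be examined. Without one or the other WT library the dKO on day 2 had 865 to 1476. TPM shifted the median log2 ratio by −0.217 and 0.284 in *Eomes* KO on days 2 and 3, by 0.122 in *T* KO on day 2, by −0.408 and −0.11 in dKO on days 2 and 3 and by 0.131 from ES to day 3. It turned the split of higher against lower DE genes from 376 and 468 to 391 and 1053 in *Eomes* KO on day 2, from 859 and 1048 to 2083 and 812 on day 3, from 647 and 1128 to 1172 and 1083 in *T* KO on day 2 and from 390 and 504 to 279 and 1869 in dKO on day 2. Depth limits *Cxcr4* and *Ackr3* most, with 2 to 39 and 7 to 93 fragments per KO or *Smad4*-line column.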
